A study of Mus musculus with 10 samples.

Results

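The spread of gene expression between mice of the same group was described in liver biopsies of inbred mice on one diet. Read counts scaled to library size with TMM factors (CPM, a level) were put on the log2 scale and centred on the mean of each group of mice, and the residual SD of a gene is the SD of what was left, pooled over the groups with 7 residual degrees of freedom. Of 10913 genes in the deposited table, 8577 had a mean FPKM of at least 1 and were ranked. The 100 genes of largest and the 100 of smallest residual SD are called the most and the least variable genes here. These genes were selected by the residual SD itself, so their SDs are a description and carry no test.

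The biopsies came from 10 wild type C57BL/6 mice fed a western diet for 12 weeks, and all 10 were taken before any treatment. Groups were named for what followed: 3 mice later received vehicle, and 7 later received obeticholic acid (OCA), an agonist of the bile acid receptor FXR, of which 4 were classed as non-responders and 3 as OCA-responders by histology at the end of treatment. The labels give neither the sex of a mouse nor the hour of its biopsy, and each mouse gave 1 library. Biopsies are named below by their group and replicate number (vehicle 1 to 3, non-responder 1 to 4, responder 1 to 3), and values are given in that order.

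Summed over its genes, the table holds 40432530 to 76529328 counts for a biopsy. Rn45s, the precursor of the ribosomal RNAs, took 3.70% to 25.7% of them. All 10 hepatocyte markers of the marker list were in the table, with a summed level of 14611 CPM in non-responder 4 to 27532 CPM in non-responder 1. No marker of T and NK cells, B cells or neutrophils was in the table, and 13 of 20 Kupffer cell and macrophage markers were, with a summed level of 150.4 to 249 CPM. The table lists only genes with a count above 0 in every biopsy, so a gene that was silent in 1 mouse cannot appear among the most variable genes. In a bulk biopsy, fewer cells of a type and less RNA per cell cannot be told apart.

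Inbred mice of one strain share their genome, and in such mice feeding, the hour of the day, stress, hormone pulses and the place of a sample in the lobe are known to move liver transcripts. In liver, the circadian clock drives daily waves of transcription factors of the PAR bZIP family, feeding and fasting turn lipogenesis, sterol synthesis and gluconeogenesis up and down, and the pulses of growth hormone set sex-biased genes such as the major urinary proteins. Machinery such as the proteasome, the coat proteins of vesicles and the spliceosome is needed in every cell at all hours.

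Libraries that stood apart were sought first. The median absolute deviation of ranked genes from the group mean, scaled for the size of the group, was 0.316 log2 units in non-responder 4, 0.279 in vehicle 1 and 0.261 in responder 1. The other 7 biopsies lay between 0.141 in vehicle 2 and 0.227 in responder 3. Non-responder 4 held the largest deviation of all 10 biopsies for 26.6% of ranked genes, vehicle 1 for 17.7% and responder 1 for 16.2%, against 1.59% for vehicle 2. The same 3 biopsies came first when the authors' log2 FPKM values were used and when genes with a mean FPKM under 5 were left out. Non-responder 4 and responder 1 had the lowest total counts (40432530 and 40609599), and Rn45s took 23.5% and 22.8% of them, while vehicle 1 had 59248371 counts with 6.58% for Rn45s. The highest Rn45s share was that of responder 3 (25.7%), which was not 1 of these 3 biopsies. The part of depth and of the Rn45s share in this spread was not tested. With all 3 left out, a choice made after seeing the data and by their deviation, the median residual SD of ranked genes was 0.22 in place of 0.31, and 65 of the 100 most variable genes and 16 of the 100 least variable genes kept their place.

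The median residual SD of the 8577 ranked genes was 0.31, and the 10th and 90th percentiles were 0.17 and 0.62. The range ran from 0.053 for Ptpn12, a protein tyrosine phosphatase, to 3.96 for Hba-a2, which encodes alpha-globin. An SD above 1 was found for 240 genes (2.80%), and an SD above 2 for 40. The last gene inside the 100 most variable was Gm5801 (residual SD 1.4389) and the first outside was Rbm12, an RNA-binding protein (1.4364). At the other end, Eif3g, a translation initiation factor, was the last inside (0.09827) and Pik3ca, a PI3 kinase catalytic subunit, the first outside (also 0.09827 after rounding). Nagpa (mean FPKM 1.0007) was the lowest gene ranked and Plekhg1 (0.9995) the highest left out.

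Spread was larger at low expression. The median residual SD was 0.47 in the lowest of 5 equal bins of ranked genes by mean log2 CPM and 0.36, 0.30, 0.26 and 0.24 in the following bins. The lowest bin held 72 of the most variable genes and the highest bin held 4, while the least variable genes had 2 and 55 members there. Counting error was small beside this spread at the median. The SD that counting alone would give had a median of 0.042 over all ranked genes, 0.20 over the most variable and 0.020 over the least variable genes. Among the least variable genes it reached 0.091, near their largest residual SD of 0.098, so it was not small for all of them. A biopsy with under 10 counts was found for 51 of the most variable genes, against 129 of all ranked genes. When the trend of SD on level was subtracted, 89 of the most variable genes kept their place but only 2 of the least variable did.

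**Figure D1:**
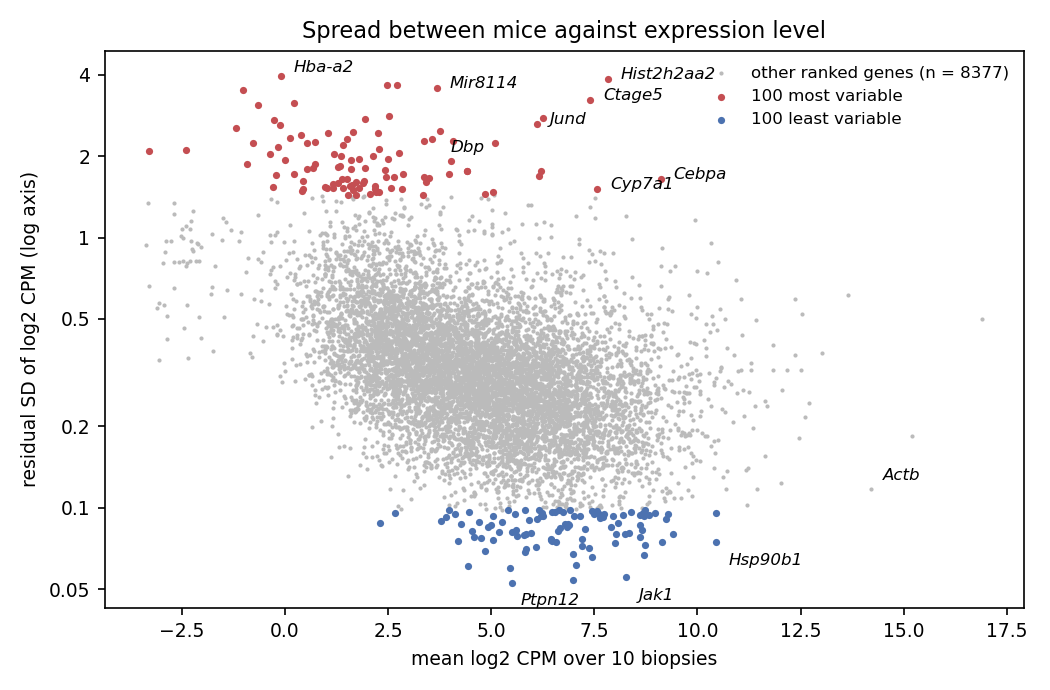
Residual SD of log2 CPM (log axis) against the mean log2 CPM over 10 biopsies for 8577 ranked genes, 1 point per gene, with the 100 most variable genes in red and the 100 least variable in blue. The SD falls with level, from a median of 0.47 in the lowest of 5 bins of genes to 0.24 in the highest, and Hist2h2aa2, Ctage5, Cebpa and Cyp7a1 combine a high level with a large spread.

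The largest deviations of the most variable genes were more often low than high. The largest deviation was a low value for 63 of the 100 genes and a high value for 37. A biopsy under 10% of the gene's median CPM was found for 68 of the 100, against 97 of all ranked genes (1.13%), and a biopsy over 10 times the median for 23, against 29 of all ranked genes (0.338%). For 37 of the 100 genes, 1 biopsy held at least 50% of the squared deviation, low in 33 and high in 4, against 14.7% of all ranked genes and 8 of the least variable genes. These shares belong to the selection and are given as its description. With an FPKM of at least 1 asked of every biopsy, which removes genes that fell low in a single mouse, 7 of the 100 kept their place.

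Single genes showed 2 shapes. Mgat1, the enzyme that starts complex N-glycans, had 39.0, 33.4 and 13.4 CPM in the vehicle group, 18.6, 33.2, 23.5 and 0.105 CPM in non-responders and 18.4, 15.8 and 18.04 CPM in responders. Only non-responder 4 was low, and the other 9 biopsies lay within a factor of 3 of each other. Tmem11, a protein of the inner mitochondrial membrane, had 17.6, 28.1 and 31.6 CPM, then 21.7, 24.6, 23.3 and 0.315 CPM and 22.99, 22.7 and 1.58 CPM, and was low in non-responder 4 and in responder 3. In the other shape, levels fell into a high and a low class with both present in several groups. Zfp62, a zinc finger gene, had 37.3, 34.9 and 0.106 CPM in the vehicle group, 23.7, 29.1, 0.272 and 14.9 CPM in non-responders and 0.199, 16.6 and 12.5 CPM in responders, so that 1 biopsy of each group was under 0.3 CPM and the other 7 were above 12. Jund, a subunit of the AP-1 transcription factor, had 23.2, 234 and 373 CPM, 271, 174, 299 and 9.49 CPM and 261, 13.2 and 2.53 CPM, with 6 biopsies at or above 174 CPM and 4 at or below 23.2 CPM. Hs3st3a1, a heparan sulfate sulfotransferase, had 16.2, 18.9 and 23.7 CPM, 0.417, 0.411, 24.1 and 1.42 CPM and 0.370, 17.99 and 16.1 CPM, and its low biopsies were 3 non-responders and responder 1.

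Pus1, a pseudouridine synthase, showed the opposite direction, with 50.5 CPM in non-responder 3 and 51.4 CPM in responder 2 and 0.683 to 2.73 CPM in the other 8 biopsies. Zfp322a, another zinc finger gene, stood at 40.8 CPM in vehicle 2 and 24.5 CPM in responder 2 and at 0.122 to 0.378 CPM elsewhere. Genes named Zfp, Zbtb, Zkscan or Zscan made up 11 of the 100 most variable genes and 165 (1.92%) of all ranked genes. A separate list of 32 ranked zinc finger genes had a median residual SD of 0.31, beside 0.31 for all ranked genes.

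Genes that share sequence with another gene were frequent at the top. Counted here are genes with at least 50% of their exon bases inside exons of another gene, or with a copy of at least 95% identity over at least 50% of their length. Such genes were 25 of the 98 most variable genes with an annotation (25.5%), 11 of the first 24 (45.8%), 6.23% of all ranked genes and 4 of the 100 least variable. Single-exon genes were 18 of the 98 (18.4%), 3.14% of ranked genes and none of the least variable, and the median number of exons was 4, 10 and 18. Across ranked genes the median residual SD was 0.39 for genes that share sequence and 0.31 for the rest, and 0.56 for single-exon genes.

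Counts of the partners were added to see the level of the pair. For 16 pairs with both genes in the table, the median residual SD was 2.20 for the variable member, 0.52 for the partner and 0.48 for the sum. The sum had an SD under 0.5 in 8 pairs, and sums ranged from 0.14 to 1.56. The partner was the more abundant gene in 10 of the 16 pairs, and there a sum can follow the partner alone. A small SD of a sum therefore does not by itself show that the members offset each other. Pairs went both ways: the SD was 0.31 for Gm5801 with Ube2j2, against 1.00 for Ube2j2 alone. For Fam89b with Sssca1 it was 0.46, against 0.17 for Sssca1 alone. Hist2h2aa2 and Hist2h2aa1, which encode the same histone H2A protein from copies on chromosome 3, are an example: Hist2h2aa2 had 290.3, 581 and 0.0352 CPM in the vehicle group, 659, 618, 459 and 615 CPM in non-responders and 475, 907 and 604 CPM in responders. In vehicle 3, where Hist2h2aa2 was near 0, Hist2h2aa1 stood at 1813 CPM, against 290.0 to 906 CPM elsewhere, and the residual SD was 3.88 for Hist2h2aa2, 0.75 for Hist2h2aa1 and 0.50 for the sum. Eno1b, a copy of the glycolytic enzyme gene Eno1, was at 0.399 CPM in non-responder 3 and 39.4 to 92.3 CPM elsewhere, with a residual SD of 2.24. Eno1 is the more abundant copy (396 to 694 CPM) and was not higher in non-responder 3 (558 CPM), and its residual SD was 0.25 alone and 0.25 in the sum.

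The next pairs were added after the values were seen. Eif3j1 and Eif3j2 both encode subunit J of translation initiation factor 3. Eif3j1 had 32.6 CPM in non-responder 4 and 30.2 CPM in responder 1 and 0.0163 to 0.470 CPM in the other 8 biopsies, while Eif3j2 was at 32.4 and 34.0 CPM in those 2 and 50.2 to 71.9 CPM in the others. The residual SD of the sum was 0.14, beside 3.52 for Eif3j1 and 0.41 for Eif3j2. Ctage5 and Mia2, which encode cargo receptors of endoplasmic reticulum exit sites, behaved likewise: Ctage5 had 0.199 CPM in responder 1 and 277 to 399 CPM in the other 9, Mia2 had 422 CPM in responder 1 and 94.4 to 277 CPM in the others, and the sum had a residual SD of 0.15. The labels and methods do not say how reads of such pairs were divided between the genes, so the values of single members are uncertain. When genes that share sequence were left out before ranking, 75 of the 100 most variable genes stayed, and this alternative was chosen after seeing the data. The SDs were not recalculated, so that number only follows from the 25 members counted as sharing sequence. Eif3j1 and Ctage5 were not counted as such and stayed.

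**Figure D2:**
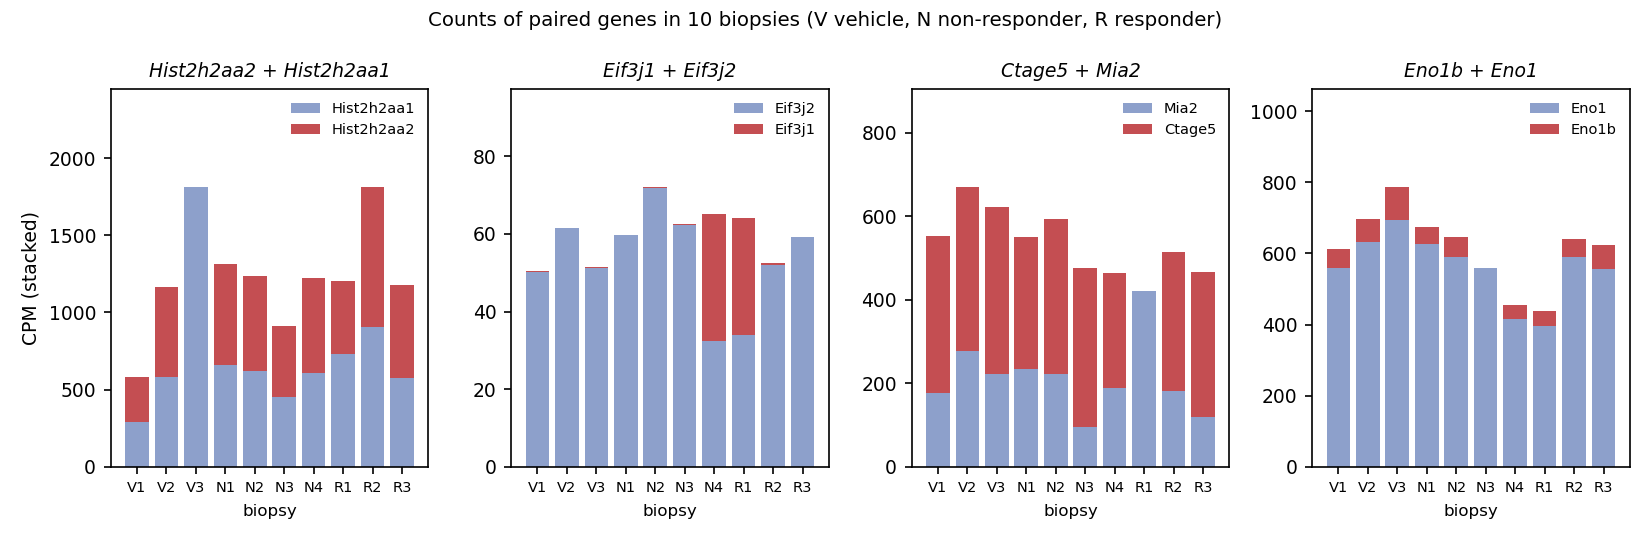
Stacked levels (CPM, bars from 0) of 4 gene pairs in 10 biopsies, with the more variable member in red and its partner in blue. In the first 3 pairs the red share is near 0 in some biopsies where the blue share is higher, while for Eno1b the blue part is the larger one throughout. The residual SD of the sum is 0.50 for Hist2h2aa2 with Hist2h2aa1, 0.14 for Eif3j1 with Eif3j2, 0.15 for Ctage5 with Mia2 and 0.25 for Eno1b with Eno1.

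The most variable genes held 3 microRNA genes, whose mature products are shown because their names stand for short RNAs. Reads came from mRNA sequencing, so the CPM values of these genes are not levels of the mature products. MicroRNAs pair with their targets through the seed, bases 2 to 8, which is in capitals. Sequences are the RefSeq entries for GRCm38.p6, and all seeds differ. For Mir23b only the 5p product was among the entries at hand, so the products shown may be incomplete.
mmu-miR-8114: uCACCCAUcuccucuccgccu
mmu-miR-23b-5p: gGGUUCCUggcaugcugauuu
mmu-miR-3069-5p: uUGGCAGUcaagauauuguuuagc
mmu-miR-3069-3p: uUGGACACuaaguacugccaca
All 111 bases of Mir8114, on chromosome 1, lie within exons of other genes, of which Glul, glutamine synthetase, is in the table. Mir8114 had 0.0148, 7.48 and 9.41 CPM, 77.1, 0.183, 84.8 and 62.9 CPM and 81.5, 59.4 and 76.0 CPM, low in vehicle 1 and non-responder 2 and intermediate in the other vehicle biopsies. Those low values of Mir8114 were 1 count in vehicle 1 and 12 counts in non-responder 2. The sum of Mir8114 and Glul had a residual SD of 0.14, as Glul alone did. Mir23b, on chromosome 13, had 1.23 CPM in vehicle 1, 1.26 CPM in non-responder 4 and 0.0117 to 0.0285 CPM in the other 8. Mir3069, on chromosome 12, had 0.0285 CPM in responder 1 and 0.523 to 2.70 CPM in the others, with a residual SD of 1.70, and lies inside the small RNA gene Scarna13.

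The circadian clock genes were among the lists of largest spread, and vehicle 1 held most of their largest deviations. Of 26 listed genes 23 were ranked, 12 of them in the most variable 10% and none in the least variable 10%, and the median residual SD was 0.64 beside 0.31 for all ranked genes. Vehicle 1 held the largest deviation for 18 of the 23, low in 13 and high in 5. The list also held Leo1, a subunit of a transcription elongation complex that is not a clock gene (residual SD 0.53). Without vehicle 1 the median was 0.49, and without vehicle 1, non-responder 4 and responder 1 it was 0.33, beside 0.29 and 0.22 for all ranked genes.

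Arntl, also called Bmal1, forms with Clock the activator of the loop. Arntl had 67.2, 2.45 and 3.75 CPM in the vehicle group, 12.8, 6.40, 5.95 and 1.15 CPM in non-responders and 5.38, 7.07 and 6.64 CPM in responders. Vehicle 1 was far above the next biopsy, non-responder 1, and non-responder 4 was the lowest. Clock itself had 126, 52.9 and 66.8 CPM, 63.9, 62.2, 48.5 and 63.6 CPM and 72.6, 69.9 and 48.3 CPM, again highest in vehicle 1. Nfil3, a repressor that binds the same D-box as the PAR bZIP factors, stood at 4.72 CPM in vehicle 1 and 0.817 and 0.411 CPM in the other vehicle biopsies, but responder 3 was higher still at 6.29 CPM.

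The output side of the loop was low in the same mouse. Dbp, a PAR bZIP activator, had 0.727, 39.97 and 35.1 CPM in the vehicle group, 26.0, 42.8, 30.1 and 30.9 CPM in non-responders and 19.7, 25.1 and 36.7 CPM in responders (residual SD 1.76). Per3, a period gene of the repressor arm, had 0.549, 19.9 and 15.8 CPM, 7.51, 16.5, 11.7 and 16.8 CPM and 9.90, 16.5 and 24.4 CPM (residual SD 1.60). Usp2, a deubiquitinase under clock control, had 4.64, 54.7 and 74.5 CPM, 9.48, 31.8, 37.2 and 46.0 CPM and 15.8, 35.3 and 39.1 CPM. In all 3 genes vehicle 1 was the lowest of the 10 biopsies, and for Usp2 non-responder 1 was next. Ciart, a repressor of Clock and Arntl activity, was at 1.96 CPM in vehicle 1 and 5.34 to 26.5 CPM elsewhere, and Tef, another PAR bZIP factor, at 32.6 CPM against 166 to 270.1 CPM. Per1, which also answers to acute signals, did not follow this pattern, with 89.2, 59.98 and 50.5 CPM, 41.4, 50.3, 148 and 139.7 CPM and 145, 211 and 258 CPM. The least variable clock genes were Rora (residual SD 0.30) and Bhlhe40 (0.31).

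**Figure D3:**
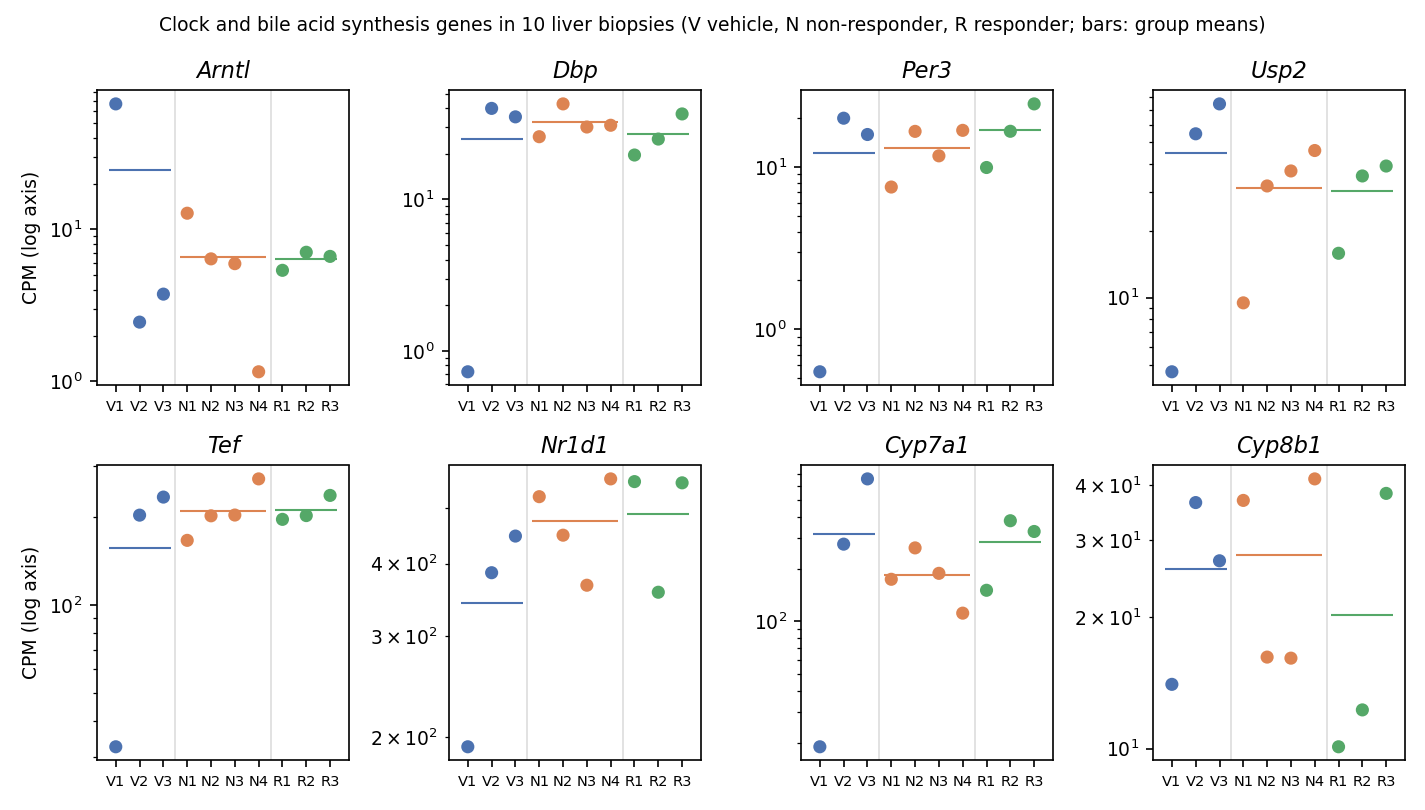
Levels (CPM, log axis) of 6 clock genes and of 2 bile acid synthesis genes in 10 biopsies, 1 point per biopsy, with a bar at the arithmetic mean of each group. Vehicle 1 is the highest biopsy for Arntl (67.2 CPM) and the lowest for Dbp (0.727 CPM), Per3, Usp2, Tef, Nr1d1 and Cyp7a1 (19.04 CPM), while for Cyp8b1 the lowest is responder 1.

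Promoter sequences of 3 clock genes are shown, picked because letters bound by the factors of this loop can be read in them. The windows run from 250 bases before to 50 after a start of the gene in RefSeq on GRCm38.p6. Searched on both strands were the E-box CACGTG, a motif of Clock and Arntl, the D-box TTATGTAA or TTACGTAA, a motif of Dbp, Tef and Nfil3, and AGGTCA, the core of the element bound by the Ror and Nr1d receptors. The matches are in capitals, on the strand of the gene.
Ciart, chr3:95882179-95882478, minus strand, E-box: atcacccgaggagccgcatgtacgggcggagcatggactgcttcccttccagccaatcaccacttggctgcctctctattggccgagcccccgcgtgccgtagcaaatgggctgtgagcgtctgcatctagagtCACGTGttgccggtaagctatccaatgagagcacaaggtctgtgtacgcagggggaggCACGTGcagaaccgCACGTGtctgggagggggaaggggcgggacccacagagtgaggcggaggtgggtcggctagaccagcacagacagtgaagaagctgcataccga
Per3, chr4:151044616-151044915, minus strand, D-box: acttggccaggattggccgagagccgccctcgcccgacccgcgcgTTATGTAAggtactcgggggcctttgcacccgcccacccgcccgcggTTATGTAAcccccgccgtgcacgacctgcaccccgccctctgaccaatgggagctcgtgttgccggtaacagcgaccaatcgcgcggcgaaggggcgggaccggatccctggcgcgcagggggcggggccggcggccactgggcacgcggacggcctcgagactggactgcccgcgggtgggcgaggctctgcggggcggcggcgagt
Arntl, chr7:113207261-113207560, plus strand, AGGTCA: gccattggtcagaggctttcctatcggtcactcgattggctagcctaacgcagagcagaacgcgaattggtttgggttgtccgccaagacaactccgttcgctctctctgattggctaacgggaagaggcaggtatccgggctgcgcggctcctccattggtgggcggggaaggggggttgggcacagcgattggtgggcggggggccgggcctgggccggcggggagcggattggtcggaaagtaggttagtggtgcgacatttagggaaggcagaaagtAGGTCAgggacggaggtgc
The window of Ciart holds 3 E-boxes and that of Per3 holds 2 D-boxes. Arntl has 2 windows, and the one with a match is shown, while the other holds none of these motifs. The window of Dbp, which is not shown, holds none of them either. Of the 23 ranked clock genes 19 had a window, and an E-box stood in 5 of them (26.3%), a D-box in 1 (5.26%) and AGGTCA in 7 (36.8%). Over all 27025 genes with a window the shares were 8.09%, 1.23% and 18.1%, and over ranked genes 12.2%, 1.01% and 15.4%. Among the most variable genes with a window an E-box was found in 14.5% and among the least variable in 14.1%. Leo1, which is not a clock gene, is 1 of the 19 and 1 of the 7 with AGGTCA. A match describes the sequence and shows no binding.

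Bile acid synthesis held 1 gene of the most variable 100, its rate-limiting enzyme. The 11 ranked genes of the classic pathway had a median residual SD of 0.38 (0.29 without vehicle 1). Cyp7a1 had 19.04, 278 and 659.7 CPM in the vehicle group, 175, 265, 189 and 112 CPM in non-responders and 151, 379 and 329 CPM in responders (residual SD 1.51). Vehicle 1 was the lowest of the 10 biopsies and vehicle 3 the highest, so the vehicle group spanned the other groups. Cyp8b1, the 12-alpha-hydroxylase of cholic acid synthesis, had 14.0, 36.5 and 26.9 CPM, 37.0, 16.2, 16.1 and 41.4 CPM and 10.1, 12.3 and 38.3 CPM (residual SD 0.83), with every group split into high and low mice. Hsd3b7, which acts after the 7-alpha-hydroxylases, ran the other way in the vehicle group, at 130.1 CPM in vehicle 1 and 18.2 and 20.1 CPM in the others, beside 98.0 to 153 CPM in the later OCA mice.

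The alternative pathway showed variable and steady steps, and its 6 ranked genes had a median residual SD of 0.57 (0.40 without responder 1 and 0.49 without non-responder 4). Cyp7b1, the oxysterol 7-alpha-hydroxylase, had 16.2, 14.4 and 11.3 CPM, 9.499, 4.95, 6.47 and 9.44 CPM and 32.2, 2.80 and 6.17 CPM (residual SD 1.01). Responder 1 was the highest and responder 2 the lowest of the 10, so the 3 responders enclosed both other groups. Cyp2c70, which makes muricholic acids in mice, was likewise highest in responder 1, at 47.4 CPM against 5.77 to 20.2 CPM elsewhere. Cyp27a1, the sterol 27-hydroxylase, had 206, 189.8 and 206 CPM, 195, 199, 182 and 247 CPM and 237, 208 and 212 CPM (residual SD 0.14), with all biopsies within 182 to 247 CPM. Nr1h4, which encodes FXR, and its partner Rxra had residual SDs of 0.37 and 0.23, and Nr0b2, the FXR target SHP, 0.50.

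The major urinary proteins, pheromone carriers secreted by the male liver, were the list of largest spread. The median residual SD of the 17 ranked Mup genes was 0.94 (0.81 without responder 1 and 1.01 without responder 3 at the extremes, and 0.78 without the 3 biopsies that stood apart), 12 were in the most variable 10%, and responder 1 held the largest deviation for 11, high each time. Mup7 had 11.1, 45.3 and 18.7 CPM in the vehicle group, 54.5, 18.4, 28.1 and 52.9 CPM in non-responders and 178, 12.3 and 42.9 CPM in responders. Mup14 had 7.71, 27.3 and 10.9 CPM, 32.7, 9.67, 18.6 and 40.4 CPM and 110.1, 12.1 and 34.2 CPM, with the same order of mice in the vehicle and the responder group. Responder 1 was the highest biopsy for both, and vehicle 2 stood above vehicle 1 and vehicle 3. Mup20, also called darcin, varied less, with 60, 72.6 and 61.3 CPM, 136, 72.3, 89.8 and 77.6 CPM and 175, 90.6 and 90.6 CPM (residual SD 0.40), and Mup21 was the steadiest (0.28). The coding sequences of Mup genes are near-identical, so single members are uncertain: Mup17 (residual SD 2.33) had 64.3 CPM in responder 1 and 0.117 to 1.81 CPM elsewhere, and its sum with its copy Mup13 had an SD of 1.14.

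The list of sex-biased liver genes, which shares 4 Mup genes with the former, had a median residual SD of 0.66, and responder 1 held the largest deviation for 14 of its 20 ranked members. Without responder 1 the median was 0.46. Selenbp2, a selenium-binding protein, had 149, 387 and 368 CPM, 367, 176, 244 and 275 CPM and 2154, 164 and 221 CPM. Cyp4a10, a fatty acid omega-hydroxylase, had 2.24, 10.4 and 20.6 CPM, 14.1, 29.6, 9.39 and 28.9 CPM and 1.17, 23.2 and 22.3 CPM, with responder 1 lowest and vehicle 1 next. Cyp2a4, a steroid hydroxylase more abundant in females, was at 0.256 CPM in responder 1 and 1.36 to 5.03 CPM in the others. So in responder 1 Selenbp2 and 16 of the 17 ranked Mup genes were above their group mean and Cyp2a4 was low. Over the sex-biased list 16 of the 20 members were above the group mean in responder 1 and 4 were below. The list was not split by the direction of the sex bias. Transcripts of 4 Y chromosome genes were present in all 10 biopsies, and their residual SDs were 0.19 to 0.23, for example 452, 385 and 369.6 CPM, 269, 251, 372 and 354 CPM and 399, 332 and 435 CPM for the RNA helicase Ddx3y. Onecut1, a hepatocyte factor of the growth hormone list, had 76.1, 82.0 and 65.9 CPM, 99.1, 209, 567 and 296 CPM and 1204, 117 and 91.3 CPM and was highest in responder 1. Igf1, the main endocrine output of growth hormone in liver, had a residual SD of 0.17.

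Fatty acid synthesis genes spread widely, with responder 1 on the low side. The 19 ranked lipogenesis genes had a median residual SD of 0.63 (0.50 without responder 1), and 10 were in the most variable 10%. Responder 1 held the largest deviation for 11 of them, low each time. Elovl5, an elongase of polyunsaturated fatty acids, had 124, 31.7 and 27.4 CPM in the vehicle group, 31.0, 28.6, 35.7 and 47.8 CPM in non-responders and 5.92, 26.4 and 52.5 CPM in responders, highest in vehicle 1 and lowest in responder 1. Elovl3, an elongase of saturated fatty acids, had 11.5, 1.06 and 1.95 CPM, 4.88, 1.52, 1.197 and 1.68 CPM and 2.65, 1.30 and 1.347 CPM, again highest in vehicle 1. Mid1ip1, an activator of acetyl-CoA carboxylase, had 0.979, 3.17 and 1.49 CPM, 31.7, 24.3, 30.2 and 2.96 CPM and 12.2, 15.8 and 24.3 CPM, and non-responder 4 stood with the vehicle biopsies, under the other 6. Mlxipl, which encodes the carbohydrate-responsive factor ChREBP, had a residual SD of 0.28.

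Sterol synthesis divided the mice in 2 directions. The 19 ranked cholesterol synthesis genes had a median residual SD of 0.54 (0.43 without responder 1 and 0.53 without non-responder 4), every one was below its group mean in responder 1, and the median deviation of the list was -0.62 in responder 1 and 0.59 in non-responder 4. Nsdhl, a sterol dehydrogenase of the late pathway, had 3.09, 3.37 and 2.83 CPM, 6.18, 6.90, 6.84 and 18.6 CPM and 1.48, 4.89 and 6.15 CPM. Msmo1, a sterol demethylase, had 2.40, 3.73 and 1.94 CPM, 2.90, 1.86, 3.48 and 10.6 CPM and 1.37, 2.97 and 6.43 CPM. In both genes non-responder 4 was the highest and responder 1 the lowest of the 10 biopsies. Scap, the chaperone of SREBP, was steady with a residual SD of 0.15.

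The list of gluconeogenesis and the fasting response was mostly high in vehicle 1. Of its 17 ranked genes, vehicle 1 held the largest deviation for 11, high in 9, and the list's median was 0.43 (0.35 without vehicle 1). Above the group mean were 13 of the 17 in vehicle 1, and 14 each in non-responder 3 and responder 3. Lipogenesis genes were mostly above the group mean in vehicle 1 too (15 of 19). Ppargc1a, a coactivator of gluconeogenic genes, had 416, 76.4 and 95.6 CPM in the vehicle group, 85.0, 76.2, 317 and 74.2 CPM in non-responders and 162, 704 and 752 CPM in responders, so each group held both high and low mice. G6pc, glucose-6-phosphatase, had 820.3, 214 and 162 CPM, 779.6, 482, 1051 and 436 CPM and 931, 690.4 and 913 CPM, and Lpin1, a phosphatidate phosphatase, had 61.4, 8.25 and 9.07 CPM, 23.9, 19.8, 70.4 and 30.8 CPM and 77.7, 54.3 and 62.8 CPM. Vehicle 1 lay within the range of the later OCA mice for both genes, and vehicle 2 and vehicle 3 lay below all of them. Klf15 and Creb3l3, further factors of the fasting response, had residual SDs of 0.21 and 0.17.

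Fatty acid oxidation genes were low in the same biopsy and, to a smaller extent, in responder 1. All 28 ranked genes of fatty acid oxidation and ketogenesis were below the group mean in vehicle 1, which held the largest deviation for 15, and the list's median was 0.43 (0.33 without vehicle 1). In responder 1, 27 of the 28 were below the group mean, with a median deviation of -0.36, against -0.63 in vehicle 1. Acaa1b, a peroxisomal thiolase, had 543, 1447 and 1201 CPM, 1011, 1234, 1293 and 1718 CPM and 558, 1865 and 2273 CPM, and responder 1 was almost as low as vehicle 1. Acadvl and Hadhb, enzymes of long-chain oxidation in mitochondria, were steady with residual SDs of 0.13 and 0.14. Metallothionein and zinc genes had a median of 0.55 over 5 ranked genes (0.47 without vehicle 1), and vehicle 1 held the largest deviation for 4, high each time: Mt2, a zinc-binding protein, had 36.0, 9.66 and 7.55 CPM, 2.63, 3.78, 4.79 and 4.54 CPM and 2.65, 9.40 and 8.84 CPM (residual SD 0.88).

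Acute phase genes were high in responder 1. It held the largest deviation for 13 of 22 ranked members, high each time, and the list's median was 0.37 (0.26 without responder 1). Saa1, a serum amyloid A protein, had 149, 47.6 and 43.9 CPM in the vehicle group, 45.4, 61.0, 55.5 and 39.1 CPM in non-responders and 694, 65.6 and 88.1 CPM in responders. Saa2 had 42.8, 17.7 and 16.5 CPM, 10.8, 23.04, 18.99 and 8.47 CPM and 131, 22.7 and 15.8 CPM, the same order within the vehicle group. Responder 1 was the highest for both, and vehicle 1 was the highest of the vehicle group. Cebpb, a transcription factor of the acute phase response, had 7.42, 7.92 and 321 CPM, 4.94, 5.70, 8.85 and 6.14 CPM and 9.53, 6.47 and 7.73 CPM (residual SD 1.68), so that vehicle 3 alone was high. Saa1 and Saa2 were not high in vehicle 3. Cebpb has 1 exon in the annotation. Cebpa, a related factor of hepatocyte identity, was low in vehicle 2 (23.1 CPM) and high in vehicle 3 (1459.9 CPM), beside 413 to 860.2 CPM in the others. Fga, a fibrinogen chain, and Itih4 were steady, with residual SDs of 0.19 and 0.22.

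The list of the unfolded protein response was the only one whose median moved by more than 1.5 times when a single biopsy was left out, from 0.43 over 20 genes to 0.27 without responder 1. Sdf2l1, an endoplasmic reticulum chaperone partner, had 14.98, 10.2 and 10.2 CPM, 12.4, 6.95, 5.48 and 7.66 CPM and 22.4, 3.57 and 5.70 CPM, highest in responder 1. Vldlr, the VLDL receptor, had 11.7, 12.3 and 14.7 CPM, 13.6, 19.8, 14.0 and 18.8 CPM and 2.76, 17.8 and 21.8 CPM, lowest in responder 1. Herpud1 and Hsp90b1 of the same list were among the 100 least variable genes.

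Immediate early genes, which respond within minutes to handling and injury in many tissues, had a median residual SD of 0.62 over 19 ranked genes, and the largest deviation lay in vehicle 1, non-responder 3 and responder 1 for 5 genes each, high for all 5 in non-responder 3. Nr4a2, an orphan nuclear receptor, had 3.74, 0.703 and 0.834 CPM, 1.54, 1.26, 2.56 and 12.1 CPM and 1.54, 5.62 and 49.6 CPM. Fos had 15.6, 6.06 and 2.13 CPM, 20.5, 1.98, 15 and 7.63 CPM and 12.6, 4.85 and 8.44 CPM, with high and low mice in each group. Atf3, a stress-induced factor, had 17.7, 7.53 and 15.1 CPM, 61.5, 29.2, 177 and 17.4 CPM and 107, 75.8 and 196 CPM. Non-responder 3 had the largest median deviation of the list (0.69), and non-responder 2 the lowest (-0.52). Klf6 and Zfp36 were the least variable members, with residual SDs of 0.38 and 0.40.

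Red blood cell genes were few but wide in spread, and 5 of 10 markers were in the table. Hba-a2 had 0.297, 0.294 and 0.364 CPM in the vehicle group, 0.818, 0.137, 0.145 and 152 CPM in non-responders and 0.199, 0.150 and 64.9 CPM in responders, high in non-responder 4 and responder 3 alone. Hbb-b1, a beta-globin gene, had 79.3, 5.23 and 10.9 CPM, 318, 169, 177 and 227 CPM and 175, 10.4 and 187 CPM, low in vehicle 2, vehicle 3 and responder 2, a different set of mice. Hba-a2 has a copy of 99.8% identity, Hba-a1, which is not in the table, and Hbb-b1 and Hbb-b2 are alike too, so their single values are uncertain. The sum of the 5 genes was 79.9 CPM in vehicle 2 and 616 CPM in non-responder 4. Alas2, the erythroid enzyme of heme synthesis, had a residual SD of 0.49 with 5.32 CPM in non-responder 4, the lowest of the 10, where Hba-a2 was highest. The part of blood in the biopsies in other genes' spread was not tested.

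Non-responder 4 was low in bulk machinery and amino acid metabolism, and vehicle 1 was low in part of it. Non-responder 4 held the largest deviation for 41 of 78 cytosolic ribosomal protein genes and 27 of 69 respiratory complex subunits. It did so too for 19 of 36 genes of the urea cycle and amino acid catabolism, and all were low. Vehicle 1 held it for 21 of the ribosomal and 16 of the respiratory genes, also low each time. The median deviations of these lists in vehicle 1 were -0.31 and -0.29, but 0.11 for the urea cycle list. Cps1, the first enzyme of the urea cycle, had 15719, 9742 and 10933 CPM, 18171, 15110.0, 16567 and 4951 CPM and 15554, 16085 and 13441 CPM. For Cps1 non-responder 4 was the lowest of the 10 biopsies. The median residual SDs of the 3 lists were 0.32, 0.37 and 0.39, and 0.25, 0.31 and 0.28 without non-responder 4. The summed CPM of hepatocyte markers was lowest in this biopsy and that of endothelial markers highest (558 CPM), but 6 of 10 and 6 of 11 ranked members were above the group mean, with median deviations of 0.05 and 0.06, and their part in the result was not tested.

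**Figure D4:**
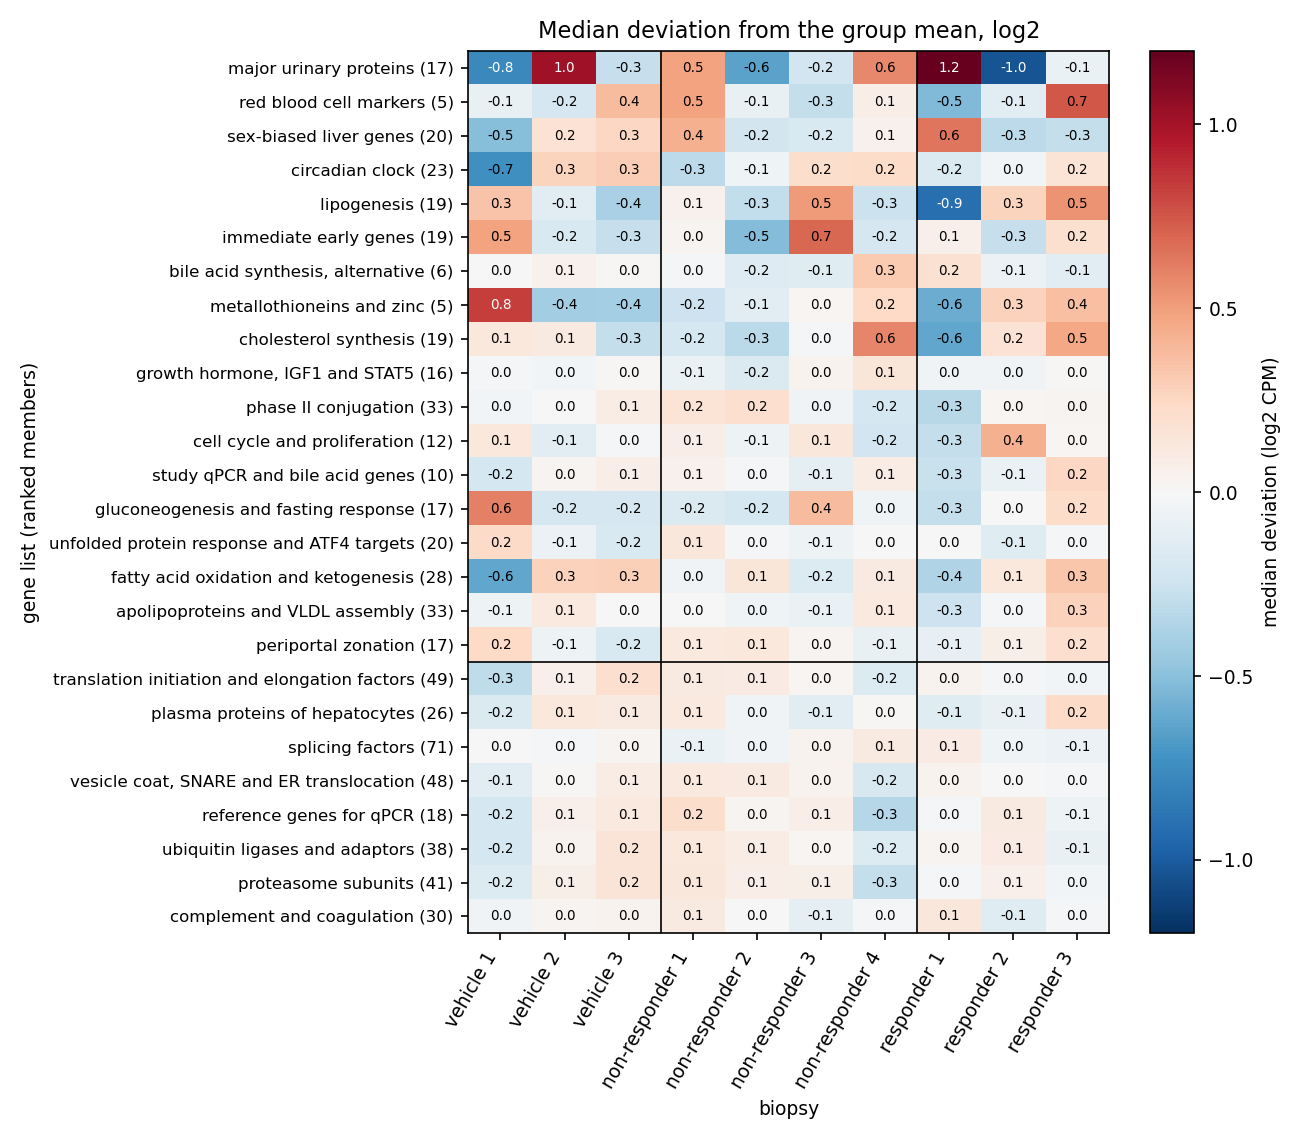
Median deviation from the group mean (log2 CPM, colour and number) of the ranked genes of 26 lists in each of 10 biopsies, with the 18 lists of largest median residual SD above the line and the 8 of smallest below it (lists of at least 5 ranked genes). Vehicle 1 is low for clock and fatty acid oxidation genes (-0.74 and -0.63) and high for fasting genes (0.61), responder 1 is high for Mup genes (1.19) and low for lipogenesis (-0.91) and cholesterol synthesis (-0.62), and non-responder 4 is low for the reference genes (-0.34).

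Among the 100 least variable genes, the highest biopsy of a gene exceeded its lowest by 1.18 to 2.22 times. Ptpn12 had 42.7, 40.02 and 41.3 CPM in the vehicle group, 45.1, 43.3, 46.7 and 41.8 CPM in non-responders and 51.2, 51.6 and 52.6 CPM in responders. Tlk1, a kinase of chromatin assembly, had 139.7, 131 and 142 CPM, 125, 124, 114 and 119.8 CPM and 125, 123 and 119 CPM. Jak1, the cytokine receptor kinase, had 304, 297 and 308 CPM, 326, 295, 295 and 288 CPM and 325, 334 and 339 CPM. For Jak1, non-responder 1 held 61.7% of the squared deviation, and the residual SD of 0.056 was 0.025 without it. Others of the lowest 15 were Lrp6, a Wnt coreceptor (residual SD 0.067), Ctnnd1, p120 catenin (0.066), Ddx42, an RNA helicase (0.067), Mgat4b, an N-glycan branching enzyme (0.069), Gak, a kinase of clathrin uncoating (0.070), and Mgea5, the O-GlcNAc hydrolase (0.072).

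Levels of some of the least variable genes did not overlap between groups. Proc, the anticoagulant protein C, had 102, 106 and 102 CPM in the vehicle group, 150, 142, 149 and 131 CPM in non-responders and 157, 158 and 156 CPM in responders, with the vehicle group below all later OCA mice. Nus1, a subunit of the dolichol synthase, had 30.0, 29.3 and 31.7 CPM, 21.3, 21.5, 20.1 and 22.03 CPM and 16.4, 16.8 and 15.3 CPM, with no overlap between any of the groups. Hsp90b1, the chaperone GRP94, had 1249.6, 1099 and 1065 CPM, 1493, 1537, 1444 and 1421 CPM and 1566, 1619.9 and 1591 CPM, again with no overlap. These genes were selected for a small spread, so no test is given for them. Groups separate more readily where the spread is small. How many of the least variable genes, or of all ranked genes, separate in this way was not counted, so nothing is read from these examples.

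The F-test over the 3 groups (edgeR's quasi-likelihood test with Benjamini-Hochberg adjustment) called 367 of 10844 genes, 3.38%, at an adjusted p under 0.05, and 9 of the 100 least variable genes and 1 of 99 tested most variable genes were among them. The test divides by the spread on which these genes were selected, so nothing is read from either count. The SD of the 3 group means was 0.96 (median) for the most variable genes, 0.16 for the least variable and 0.24 for ranked genes. The number called rested on single biopsies: it was 1 without vehicle 2, 10 without vehicle 3, and 755 without non-responder 4, and all other omissions but that of vehicle 1 (351) left 22 to 101. The 10 libraries are single mice, so the test sets group means against the spread between the mice of a group.

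Pathways of small spread were blood clotting, protein turnover and membrane traffic. The 30 ranked complement and coagulation genes had a median residual SD of 0.23, with 6 in the least variable 10% and 1 in the most variable. Besides Proc, the factor B gene Cfb had 93.3, 83.0 and 96.7 CPM, 91.8, 99.2, 77.7 and 84.4 CPM and 97.9, 80.0 and 85.4 CPM (residual SD 0.14). The most variable members were C8b and C6, parts of the membrane attack complex, with residual SDs of 0.63 and 0.61, and both were highest in responder 1 (273 and 474 CPM), which held the largest deviation for 10 of the 30 genes, high each time. Without responder 1 the list's median was 0.22. Proteasome subunits (41 genes) and ubiquitin ligases and adaptors (38 genes) both had a median of 0.23, vesicle coat, SNARE and translocation genes (48) 0.24, splicing factors (71) 0.25, plasma proteins of hepatocytes (26) 0.25 and translation factors (49) 0.26. Exceptions inside these lists were Psmg2, a proteasome assembly chaperone, with 0.367 CPM in non-responder 4 and 3.46 to 7.86 CPM elsewhere (residual SD 1.25), and Hnrnpf, a splicing regulator, with 2.22 and 4.99 CPM in responder 1 and responder 3 and 96.0 to 223 CPM elsewhere (1.77).

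Reference genes for qPCR were not equally steady. The 18 ranked genes had a median residual SD of 0.24. Actb, beta-actin, had 16708, 18807 and 20893 CPM, 19451, 19431, 20344 and 17966 CPM and 20273, 17313 and 17994 CPM, the smallest residual SD of the list (0.12). Eef2, a translation elongation factor, had a residual SD of 0.15. Gapdh, the glycolytic enzyme, had 898, 845 and 885 CPM, 909, 733, 972 and 597 CPM and 717, 885 and 735 CPM (0.23). Tfrc, the transferrin receptor, had 13.9, 5.67 and 3.36 CPM, 10.7, 7.22, 14.5 and 7.82 CPM and 7.34, 9.53 and 7.90 CPM (0.64), the largest spread of the list, with vehicle 1 and non-responder 3 high.

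**Figure D5:**
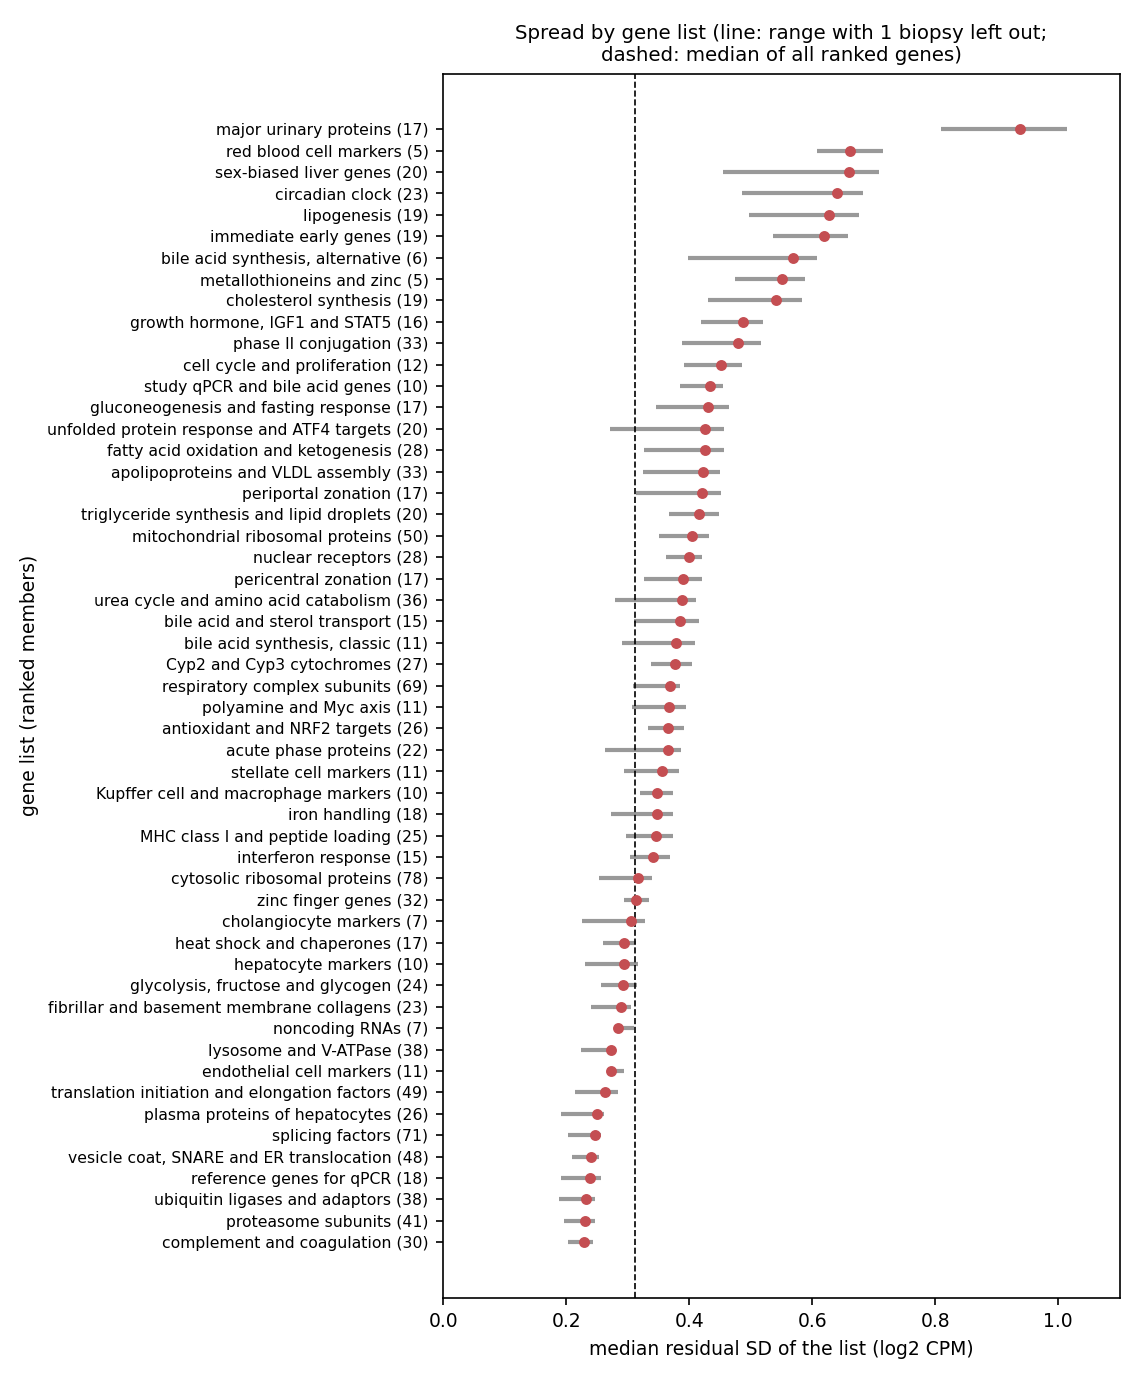
Median residual SD (log2 CPM) of the ranked members of each gene list of at least 5 ranked genes (red points, number of genes in brackets), with the range when each biopsy in turn is left out (grey lines) and the median of all ranked genes (dashed, 0.31). Mup genes (0.94) lie highest and complement and coagulation genes (0.23) lowest, and the lines of sex-biased genes, clock genes and lipogenesis reach far to the left.

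The spread was read again in the group that a ranking by the other 2 groups left out. Genes were ranked by the residual SD of 2 groups, and the SD of the first 100 was then read in the remaining group. Their median SD was 0.64 in the vehicle group, 0.83 in non-responders and 1.199 in responders, against 0.25, 0.28 and 0.28 for all ranked genes, and 54, 65 and 66 of the 100 were in the most variable 10% there. The 100 of smallest SD had medians of 0.15, 0.18 and 0.17 in the group not used, with 16, 29 and 25 in the least variable 10%. The FPKM minimum and the TMM scaling drew on all 10 biopsies, so the group read was not wholly apart. Of the first 100 genes, 84, 80 and 73 were also among the 100 most variable genes of the main ranking. Level is shared between the groups and goes with spread, and genes are not independent, so these values are given as a description without a test.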

How the data were processed

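RNA was sequenced from 10 liver biopsies, 1 library per mouse, grouped by the sample titles. The labels name both a TruSeq Stranded mRNA and a SMARTER kit. The submitters' processing notes name FastQC 0.11.7, Trimmomatic 0.38, HISAT2 2.1.0 and the mm10 build, and the methods add StringTie, whose version was not stated. The step from alignments to counts and the use of strand are not given in the sources at hand. The authors deposited 1 table of genes with no 0 in any biopsy. The authors give each gene a whole-number read count, an FPKM value and a quantile-normalized log2 value of FPKM plus 1. The deposited table also holds the authors' own group comparisons (folds, volumes and statistics, listed as scores, p-values, and log2 group means and SDs), none of which was used.

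Counts were scaled by TMM in edgeR 4.0.16 (R 4.3.3), turned into log2 CPM with a prior count of 2 and centred on group means. The pooled SD of the residuals, with 7 degrees of freedom, ranked the genes with a mean FPKM of at least 1. CPM values in the text carry no prior count. Total counts lay between 40432530 and 76529328 per biopsy, and their counting error is given beside the spread. Groups were compared by edgeR's quasi-likelihood F-test after filterByExpr (minimum count 10, minimum total 15), with Benjamini-Hochberg adjustment and a threshold of 0.05. Alternatives used DESeq2 1.42.0, limma 3.58.1, other prior counts, scalings, filters and measures of spread (among them a loess trend of span 0.5), a replicate block and omission of each biopsy. The test and the ranking were also run on simulated counts, drawn separately for each gene and without reads shared between copies. That run checks the code and says nothing on the genes ranked here. Overlapping exons and copies were read from the reference annotation and transcripts.

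Genes named were the 25 of largest and 15 of smallest residual SD, up to 4 of largest and 2 of smallest SD in each list with at least 3 ranked members, the ranked bile acid, reference, Y chromosome and Mup genes, Rn45s, the 3 genes of largest deviation in each biopsy and those next to a threshold. Cebpa, Ciart, Clock, Leo1, Mir23b, Mir3069, Nfil3, Nr1d1, Per1, Selenbp2, Tef and the partners Eif3j2, Eno1, Hist2h2aa1, Mia2 and Glul were named after their values were seen. The members and the 62 lists were chosen with earlier results of these data known. Results of some genes are not reported here.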

Additional observations from a re-analysis of the deposited data

Results flagged for a closer look

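In the group of 4 non-responders, Dixon's ratio (the gap of the most extreme biopsy to its neighbour over the range of the group) was compared with its critical value of 0.829. Groups of 3 were not tested. Of 438 values tested, 44 (10.0%) exceeded it. Chance flags about 1 in 20 groups, but many of these genes were named for having a biopsy far from its group. Nothing is therefore read from the share, and the ratios of single genes below are a description. Non-responder 4 was the biopsy apart in 29 of them, non-responder 3 in 11, non-responder 2 in 3 and non-responder 1 in 1.

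Non-responder 4 stood apart in its median absolute deviation over ranked genes (ratio 0.84) and in the percentage of ranked genes for which it held the largest deviation (0.941). Its median deviation lay apart for the nuclear receptor list (0.83) and for proteasome subunits (0.829 after rounding). Single genes with non-responder 4 apart were Tmem11 (low, 0.971), Nsdhl (high, 0.9), Mgat1 (low, 0.894), Mid1ip1 (low, 0.887), Mgea5 (high, 0.882), Cyp2c70 (low, 0.873), Psmg2 (low, 0.871), Acadvl (low, 0.87), Cps1 (low, 0.858) and Jund (low, 0.842).

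Non-responder 3 was apart for Pus1 (high, 0.979), Eno1b (low, 0.929), Ppargc1a (high, 0.906) and Zfp62 (low, 0.853). Non-responder 2 was apart for Mir8114 (low, 0.95) and Eif3g (high, 0.835).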

How the results depend on the processing

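All ranks rest on 3 or 4 mice a group. Of the 100 most variable genes, 52 kept their place with the authors' log2 FPKM values, 66 by the median absolute residual, 34 with a mean FPKM of at least 5, 7 with an FPKM of at least 1 in every biopsy, and 65 with vehicle 1, non-responder 4 and responder 1 left out, an alternative chosen after seeing the data. The 34 and the 7 only count members that pass the stricter FPKM filter, since the SDs were not recalculated there. Leaving out 1 biopsy kept 83 (without responder 2) to 97 (without non-responder 2). Of the 100 least variable genes, 47 stayed with library size alone, 57 with log2 FPKM, 37 by the median absolute residual, 2 once the trend of SD on level was subtracted, 35 about the mean of all 10 biopsies, 16 without those 3 biopsies, and 52 (without non-responder 4) to 80 (without vehicle 2) with 1 biopsy left out. The median residual SD ran from 0.29 to 0.33 with 1 biopsy left out. Of the 10 lists of largest spread, 5 stayed without those 3 biopsies and 8 to 10 without 1, and of the 10 of smallest spread 5 stayed after the trend was subtracted and 8 to 9 without 1 biopsy. DESeq2's likelihood ratio test called 1367 genes across the 3 groups, against 367, and omission of 1 biopsy left 1 (without vehicle 2) to 755 (without non-responder 4).

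Residuals of same-numbered biopsies correlated at -0.07 to 0.08 over 9 pairs, and those of other pairs between groups at -0.20 to 0.19. Same-numbered mice were thus no more alike, but such correlations cannot show whether mice were paired in another way. With a replicate block, 70 of the most and 26 of the least variable genes stayed, the median residual SD was 0.28 and 166 genes were called. Of 869 SDs of named genes under the alternatives 801 were within 1.5 times the main value, as were 765 of 798 list medians. Besides the unfolded protein response without responder 1 (0.27), the interferon response (0.22) and the cell cycle list (0.29) moved further with log2 FPKM, and 30 lists did so without the 3 biopsies. The cause was not tested.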
